A study of Mus musculus with 2 samples.

Results

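Markers of the crypt base stem cell were followed as 6 genes in the RNA of small intestinal organoids: Lgr5, Olfm4, Ascl2, Tnfrsf19, Mycl and Clca3b. They were chosen by gene symbol from the 1448 genes that the deposited tables list, and all 6 were listed. The AdipKO organoids carried floxed adiponectin alleles together with a Cre transgene under the villin promoter (genotype Adipfl/flpVilli-CreT), which acts throughout the intestinal epithelium and not in Paneth cells alone. The WT organoids carried the same floxed alleles without Cre (Adipfl/fl). Per the labels, both cultures were started from crypts released with 2 mM EDTA for 30 min. The study's methods state a different EDTA concentration and time for crypt isolation. Per the labels again, both cultures grew in medium with EGF (50 ng/ml), the BMP antagonist Noggin (100 ng/ml) and R-spondin (500 ng/ml). The sources used here do not give the number, age or sex of the donor mice of these cultures. Each genotype was sequenced as 1 library, which leaves the spread between cultures unmeasured and allows no test. The question was how the stem cell program of the organoid crypt differed under a genotype meant to stop the epithelium from making adiponectin.

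Intestinal stem cells sit between Paneth cells at the bottom of the crypt and divide to supply every epithelial lineage. Wnt signals, strengthened by R-spondin, keep them in that state, and the R-spondin added to organoid medium stands in for that made by stromal cells in the tissue. Lgr5 is a receptor for R-spondin and the classic label of the cycling crypt base columnar cell. Ascl2 is a basic helix-loop-helix transcription factor that sets stem cell identity downstream of Wnt. Tnfrsf19, also named Troy, is a member of the tumor necrosis factor receptor superfamily that is itself switched on by Wnt in these cells. Olfm4 is a secreted glycoprotein and a robust stem cell marker, Mycl is a member of the Myc family of transcription factors, and Clca3b (older symbol Clca4) belongs to the CLCA family of calcium-activated chloride channel regulators.

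The listed genes are not whole libraries. The raw log2 ratio of AdipKO over WT had no value between -1.04 and 0.96, so each listed gene already differed by about 2-fold and a stem cell gene with a smaller difference was left out by construction. Over the list, AdipKO had 689004.63 counts and WT 802994.76, which are sums over a selection and not depths. Adipoq, Adipor1 and Adipor2 were all absent from the list (0 of 3), so which genotype each library had could not be checked. AdipKO and WT below mean the libraries labelled so, and an exchange of labels would turn every direction. None of the 10 general epithelial markers checked, Epcam and Cdh1 among them, was listed either, so the tissue label could not be checked on them.

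The short sequences that follow are the primers designed for qRT-PCR of 5 of the 6 markers. They show which stretch that assay reads in the transcripts it matches. They were taken from the reagent list of the study and placed on GENCODE M21 transcripts by exact match.
Lgr5 forward: aagtacaatgcctctcccctc
Lgr5 reverse: ccagctctcctttctccaaac
Olfm4 forward: cagccactttccaatttcactg
Olfm4 reverse: gctggacatactccttcacctta
Ascl2 forward: aagcacaccttgactggtacg
Ascl2 reverse: aagtggacgtttgcaccttca
Tnfrsf19 forward: ttctgtgggggacacgatg
Tnfrsf19 reverse: agaaaattcagcgcagatggaa
Mycl forward: gcacttccatatctctatccac
Mycl reverse: acaatctcttcttcctcctctt
The Lgr5 pair bounded a product of 157 bases in 3 transcripts of the gene, and the Olfm4 pair a product of 175 bases in 2. The product was 115 bases for Ascl2 (1 transcript), 67 bases for Tnfrsf19 (3 transcripts) and 174 bases for Mycl (4 transcripts). For Ascl2, Tnfrsf19 and Mycl, not every coding transcript matched both primers. No pair matched a transcript of another gene (0 other genes for each pair). No primers for Clca3b were used here.

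The sequences around the transcription start are shown next. By the labels all 6 markers were lower in AdipKO, as were 62.2% of all listed genes, and shared control was not tested. Windows of 250 bases before to 50 bases after the start were taken from RefSeq on GRCm38.p6, the build named mm10 elsewhere, with 6 windows for 5 of the markers, Tnfrsf19 having 2 starts. Lgr5 had no entry. Both strands were searched for 6 short motifs. For the core promoter these were TATAAA, known as the TATA box, then the GC box with the letters GGGCGG, and the CCAAT box. For the Wnt effectors TCF and LEF the motif was ATCAAAG, for Myc proteins it was the E-box CACGTG, and for achaete-scute factors such as Ascl2 it was the E-box CAGCTG. Capitals mark every match, and the 3 GC boxes of Tnfrsf19 include 2 that overlap by a base.
Olfm4, chr14:80000052-80000351, plus strand: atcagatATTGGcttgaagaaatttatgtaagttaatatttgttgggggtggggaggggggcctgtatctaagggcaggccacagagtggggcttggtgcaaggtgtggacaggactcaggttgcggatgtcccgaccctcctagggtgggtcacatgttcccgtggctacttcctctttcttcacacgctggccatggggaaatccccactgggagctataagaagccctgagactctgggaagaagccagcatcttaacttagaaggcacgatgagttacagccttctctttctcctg
Ascl2, chr7:142969215-142969514, minus strand: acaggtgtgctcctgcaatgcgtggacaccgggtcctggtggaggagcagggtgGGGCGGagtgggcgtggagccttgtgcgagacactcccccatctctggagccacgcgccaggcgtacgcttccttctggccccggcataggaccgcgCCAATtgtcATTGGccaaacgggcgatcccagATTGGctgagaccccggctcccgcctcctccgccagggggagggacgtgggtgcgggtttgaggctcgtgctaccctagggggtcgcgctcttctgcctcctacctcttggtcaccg
Tnfrsf19, downstream start, chr14:61037938-61038237, minus strand: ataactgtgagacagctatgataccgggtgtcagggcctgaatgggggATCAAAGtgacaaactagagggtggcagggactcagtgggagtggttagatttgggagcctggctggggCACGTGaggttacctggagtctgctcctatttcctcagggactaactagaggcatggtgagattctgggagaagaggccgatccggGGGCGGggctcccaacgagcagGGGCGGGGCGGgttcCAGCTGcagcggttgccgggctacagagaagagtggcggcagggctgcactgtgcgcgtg
Clca3b, chr3:144849253-144849552, minus strand: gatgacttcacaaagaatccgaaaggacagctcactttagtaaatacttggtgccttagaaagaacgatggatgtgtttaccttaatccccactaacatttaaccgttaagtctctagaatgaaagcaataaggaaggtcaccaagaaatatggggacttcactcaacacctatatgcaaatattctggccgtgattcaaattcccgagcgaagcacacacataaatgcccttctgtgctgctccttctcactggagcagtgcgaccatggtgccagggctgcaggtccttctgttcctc
ATCAAAG was present in 1 window, at the downstream start of Tnfrsf19, 202 bases before it. It occurred in 3.73% of all 32851 promoter windows. The same window held CACGTG at 133 bases and CAGCTG at 10 bases before the start, letters found in 7.15% and 16.3% of all windows. The Ascl2 window had 3 CCAAT letters (37.4% of windows have at least 1) and a GC box (35.7%). Mycl, not printed, had TATAAA at 8 bases before the start (13.6%) and 1 GC box. Olfm4 had a single CCAAT, on the reverse strand and 243 bases before the start, whereas Clca3b and the upstream start of Tnfrsf19 had 0 matches. The windows of Ascl2 and Mycl were rich in G and C (67.0% and 64.0%), the Clca3b window was not (45.0%), and the median over all windows was 52.7%. A match is a run of letters and nothing more.

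By the labels, all 6 markers were lower in AdipKO than in WT organoids, a direction which these tables cannot check. With a pseudocount of 1 added to both counts, 6 of 6 passed a 2-fold limit in that direction, as did 62.2% of all 1448 listed genes, while 35.3% passed it in the other. The median log2 ratio of the 6 was -1.39, with a range from -1.55 to -1.19. The median over all listed genes was -1.15, and over the 901 lower genes alone it was -1.46, so the median marker was not lower by more than the median lower gene, and Ascl2 alone of the 6 lay past it. The range of the 6 held 297 genes, 33.0% of the lower ones. In bulk RNA, fewer stem cells and less of each transcript per stem cell cannot be told apart.

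**Figure D1:**
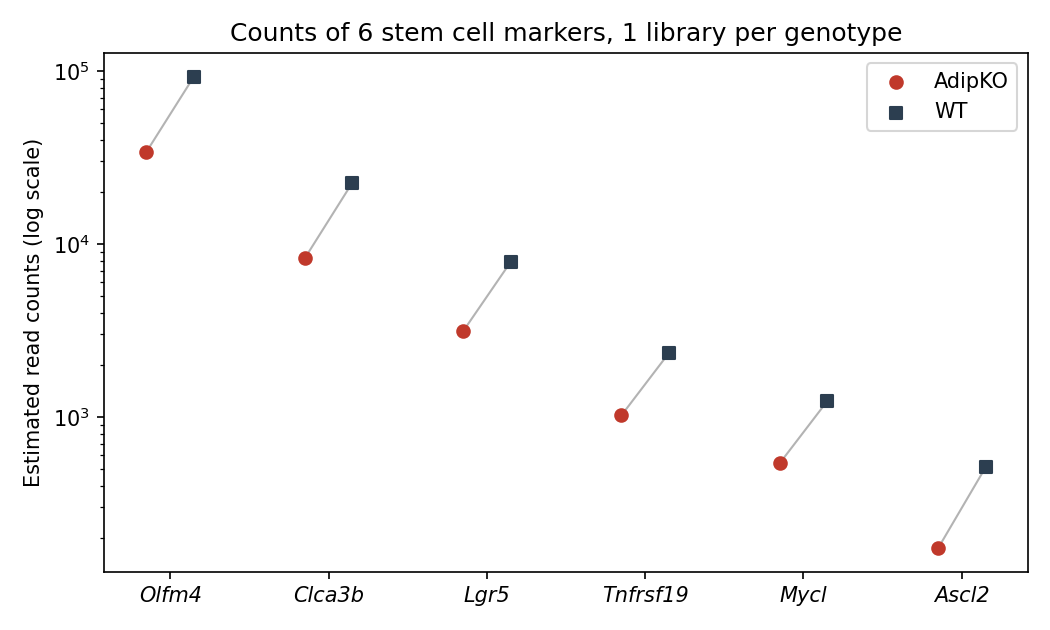
Estimated read counts (log axis) of the 6 markers, with a circle for the AdipKO library and a square for the WT library, 1 library each; genes are ordered by their WT count. The AdipKO point lies below the WT point for every marker, from 34083 against 92810 counts for Olfm4 to 174 against 511 for Ascl2.

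Olfm4 had 34083 counts in AdipKO organoids and 92810 in WT organoids. By count it ranked 2 in AdipKO and 1 in WT among the listed genes. Its count was 2.72-fold lower (exact 95% interval of the ratio 2.69 to 2.76). The gene lies on chromosome 14 from 80000302 to 80023141 (mm10). By itself it made up 4.95% of all listed counts in AdipKO and 11.6% in WT.

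Clca3b (chromosome 3, 144822623 to 144849302) had 8258 counts in AdipKO and 22557 in WT organoids, 2.73-fold lower (2.66 to 2.80). It ranked 16 in AdipKO and 5 in WT among the listed genes, which makes it the second most abundant of the 6 in both libraries. Lgr5 (chromosome 10, 115450314 to 115587780) had 3127 counts in AdipKO and 7858 in WT, 2.51-fold lower (2.41 to 2.62), and ranked 44 and 15. These 3 genes therefore stood well above the bulk of the list, where the median lower gene had 96 counts over both libraries.

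The other 3 markers were less abundant. Tnfrsf19 (chromosome 14, 60963834 to 61046855) had 1021 counts in AdipKO and 2341 in WT, 2.29-fold lower (2.13 to 2.47). Mycl (chromosome 4, 122995588 to 123002490) had 540 counts in AdipKO and 1234 in WT, also 2.29-fold lower (2.06 to 2.53). These were the smallest differences among the 6, and 24.8% and 24.1% of the lower genes lay nearer to the limit of the list than they did. Ascl2 (chromosome 7, 142966822 to 142969264) had 174 counts in AdipKO and 511 in WT. It was the rarest of the 6 and had the largest difference, 2.94-fold lower, but also the widest interval (2.47 to 3.51), which overlaps those of the other 5.

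All 6 markers had whole-number counts in both libraries, as did 1239 of the 1448 genes (85.6%), counting as whole only values with nothing after the decimal point. Of all stretches of 100 bases in their transcripts, 0 were found in another gene for Lgr5, Ascl2, Tnfrsf19 and Mycl. For Clca3b 18 of 2962 stretches (0.608%) were shared with Clca3a2, and for Olfm4 55 of 2955 (1.86%) were shared with the noncoding gene Gm6999, which overlaps it on the same strand. Genes on the opposite strand overlapped the spans of Lgr5, Tnfrsf19 and Clca3b, with 0 exonic bases in common.

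Per kilobase of transcript, Olfm4 had 15349 counts in AdipKO and 41797 in WT, with the median length of the coding transcripts as divisor. Clca3b followed with 2457 in AdipKO and 6711 in WT, then Lgr5 with 1179 and 2963, and Tnfrsf19 with 393 and 901, AdipKO first in each pair. The order of these 4 was the same in both libraries, and their counting intervals were apart. Mycl had 164 per kilobase (150 to 178) in AdipKO and 375 (354 to 396) in WT, and Ascl2 had 144 (123 to 167) in AdipKO and 422 (387 to 461) in WT. The intervals of Mycl and Ascl2 overlapped, so their order was not settled by these counts, and with the longest transcript as divisor Mycl stood above Ascl2 in both libraries.

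The make-up of the group was nearly the same in both genotypes. The ratios of the 6 lay within a range that held 33.0% of the lower genes, so like shares were not particular to them. A share within a library does not depend on how the libraries are scaled to each other. The 6 genes summed to 47203 counts in AdipKO and 127311 in WT, 2.70-fold lower. Olfm4 took 72.2% of that sum in AdipKO (95% interval 71.8 to 72.6) and 72.9% in WT (72.7 to 73.1). Clca3b took 17.5% in AdipKO (17.2 to 17.8) and 17.7% in WT (17.5 to 17.9), and the intervals overlapped. Lgr5 took 6.62% in AdipKO (6.40 to 6.85) and 6.17% in WT (6.04 to 6.31), and here the intervals were apart. With Olfm4 left out of the sum both calls changed: the intervals of Clca3b were then apart (62.1 to 63.8 in AdipKO, 64.9 to 65.9 in WT) and those of Lgr5 overlapped (23.1 to 24.6 in AdipKO, 22.3 to 23.2 in WT). Tnfrsf19 took 2.16% in AdipKO and 1.84% in WT, Mycl 1.14% and 0.969%, and Ascl2 0.369% and 0.401%, AdipKO first in each pair. Of the sum of all 6, the shares of Lgr5, Tnfrsf19 and Mycl were slightly higher in AdipKO, and that of Olfm4 slightly lower, while the intervals of Ascl2 overlapped (0.316 to 0.428 in AdipKO, 0.367 to 0.438 in WT).

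**Figure D2:**
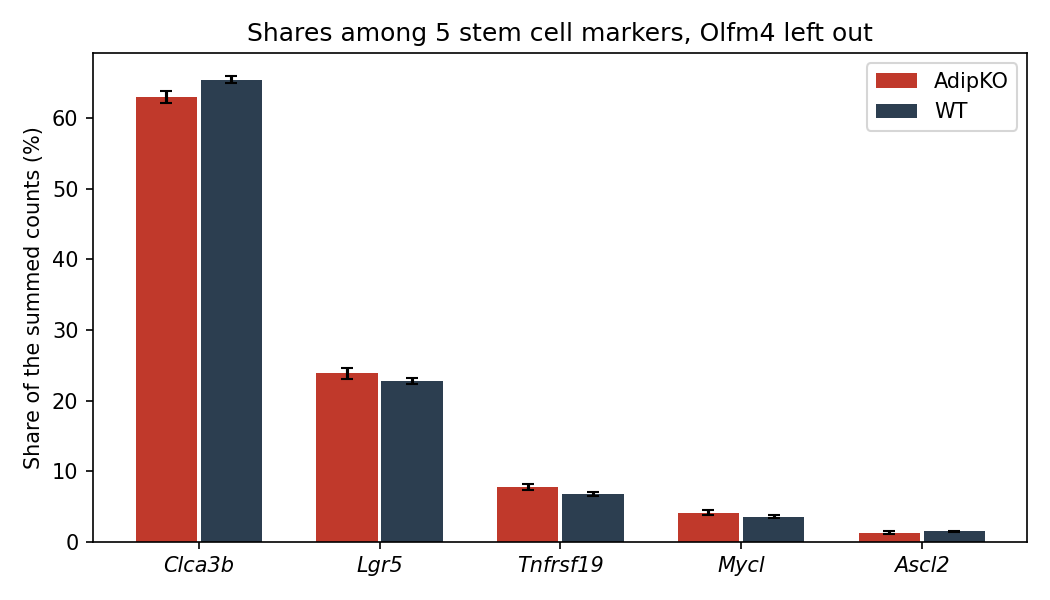
Share (%) of each gene in the summed counts of 5 markers, leaving out Olfm4, in the AdipKO library (left bar of each pair) and the WT library (right bar); error bars are exact 95% binomial intervals for counting error. Clca3b took 62.9% in AdipKO and 65.4% in WT, and Lgr5 23.8% in AdipKO and 22.8% in WT.

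The 6 genes were also set against each other in 15 pairs, as the ratio of their AdipKO over WT ratios with an interval from the 4 counts. The largest ratio of ratios was 1.29, for Mycl over Ascl2 (95% interval 1.05 to 1.57). The interval lay away from 1 in 9 pairs, and in 6 pairs after widening for 15 comparisons. Those 6 set Lgr5, Tnfrsf19 or Mycl against Olfm4 or Clca3b. Olfm4 and Clca3b kept a like proportion, with 4.13 Olfm4 counts per Clca3b count in AdipKO and 4.11 in WT (ratio 1.003, 0.975 to 1.03). Mycl and Tnfrsf19 did as well, with 0.529 Mycl counts per Tnfrsf19 count in AdipKO and 0.527 in WT (ratio 1.003, 0.885 to 1.14). These intervals cover counting error alone, and how far such ratios vary between cultures of the same genotype was not measured.

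**Figure D3:**
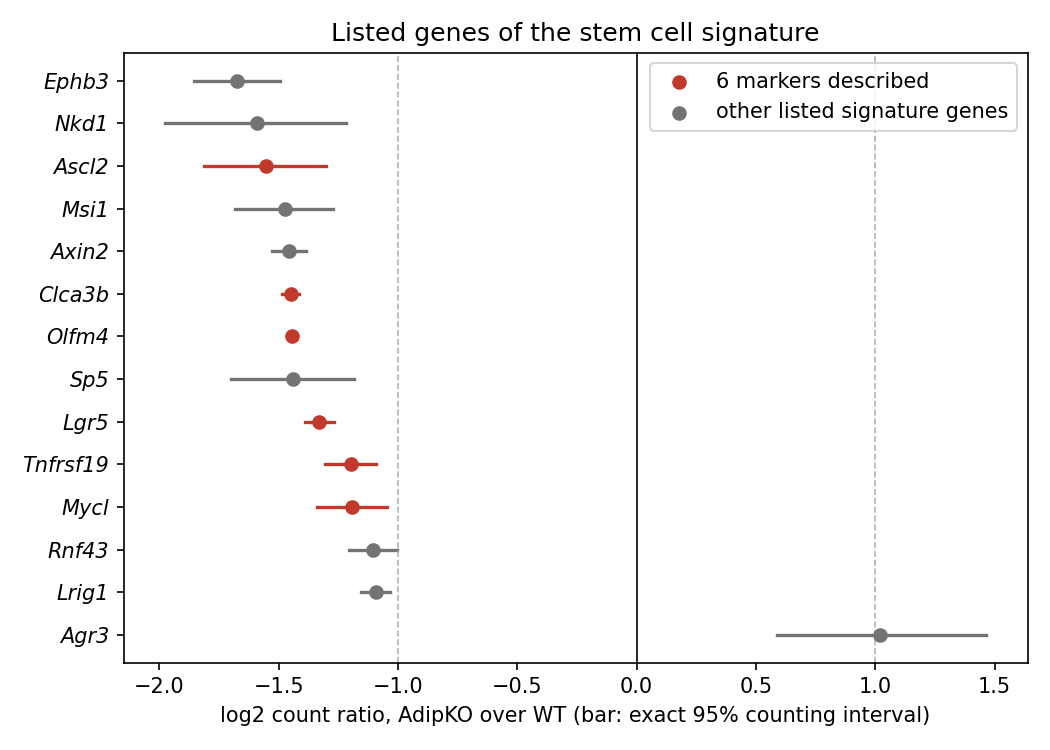
Log2 count ratio of AdipKO over WT for the 14 listed genes of the stem cell signature, with points for the ratio and bars for its exact 95% counting interval; dashed lines mark a 2-fold difference. The 6 markers lie among 7 other genes that were lower, from Ephb3 at the top to Lrig1, and Agr3 is the single gene to the right of 0.

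Other genes of the crypt base signature went the same way in most cases. Of 40 genes in that list, 14 were listed, 13 of them lower by 2-fold or more and 1 higher, with a median log2 ratio of -1.44. Each listed gene was bound to pass in some direction by the selection, and 62.2% of all listed genes were lower. Leaving out the 6 markers, 7 of 8 were lower with a median of -1.44. The other 26 genes had no value here. Ephb3, a receptor tyrosine kinase that places cells along the crypt, had 339 counts in AdipKO and 1081 in WT, 3.19-fold lower (2.82 to 3.61). Axin2, a negative feedback regulator of Wnt, had 2181 and 5979 counts in AdipKO and WT, and the sum of the 6 markers per Axin2 count was 21.6 in AdipKO and 21.3 in WT. Msi1, an RNA-binding protein, had 269 counts in AdipKO against 748 in WT, and Nkd1, an inhibitor within the Wnt pathway, had 79 against 238. Sp5, a transcription factor induced by Wnt, had 172 counts in AdipKO against 466 in WT. Among the lower genes the smallest differences were those of Rnf43, a ubiquitin ligase that removes Wnt receptors (1184 counts in AdipKO and 2544 in WT), and Lrig1, a restraint on epidermal growth factor receptors (3194 and 6811). Agr3, a relative of the disulfide isomerase Agr2, was the exception with 136 counts in AdipKO and 67 in WT, 2.03-fold higher (1.50 to 2.76).

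The families of the markers were listed in part. Each listed gene was bound to pass in some direction, and 62.2% of all listed genes were lower. Of 21 genes for R-spondins and Wnt receptor complexes, 6 were listed and all 6 were lower. Beside Lgr5 and Rnf43 they were frizzled receptors for Wnt, of which Fzd2 had 110 counts in AdipKO and 240 in WT and Fzd8 had 27 and 86. Lgr4 and Lgr6, the other R-spondin receptors of the Lgr group, were not listed. In the list of 12 for the Myc family and its partners, 3 were listed and lower, Mycl itself, Mnt (217 counts in AdipKO, 455 in WT) and Mxd4 (40 and 86), both of which encode repressors that compete with Myc for Max. Myc and Mycn were not listed. Ascl2 was the sole listed gene of 12 in its own family with partners, and Olfm4 the sole listed gene of 10 olfactomedin genes.

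Clca3b and its neighbour Clca4b went in opposite directions. The CLCA genes form a cluster on chromosome 3, in which Clca3b (144822623 to 144849302) and Clca4b (144910921 to 144932529) were the 2 of 8 that were listed. Clca4b had 3737 counts in AdipKO and 1196 in WT, 3.12-fold higher (2.93 to 3.34), against the lower count of Clca3b in AdipKO. Of the stretches of 100 bases in Clca4b, 6.49% were shared with Clca4a, Clca4c-ps or Gm16233. In the superfamily of Tnfrsf19, 6 of 28 genes were listed, and the others had no value here. Of the 6, 4 were higher in AdipKO and 2, Tnfrsf19 among them, were lower. Over all listed genes, 35.3% were higher and 62.2% lower, and each was bound to pass in some direction. Eda2r, the ectodysplasin A2 receptor, had 1502 counts in AdipKO and 475 in WT, 3.16-fold higher (2.85 to 3.51). Tnfrsf18 had 175 counts in AdipKO and 72 in WT, and Tnfrsf8 had 65 and 14, whereas the other lower gene, Tnfrsf4, named after its values were seen, had 0 counts in AdipKO and 6 in WT.

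**Figure D4:**
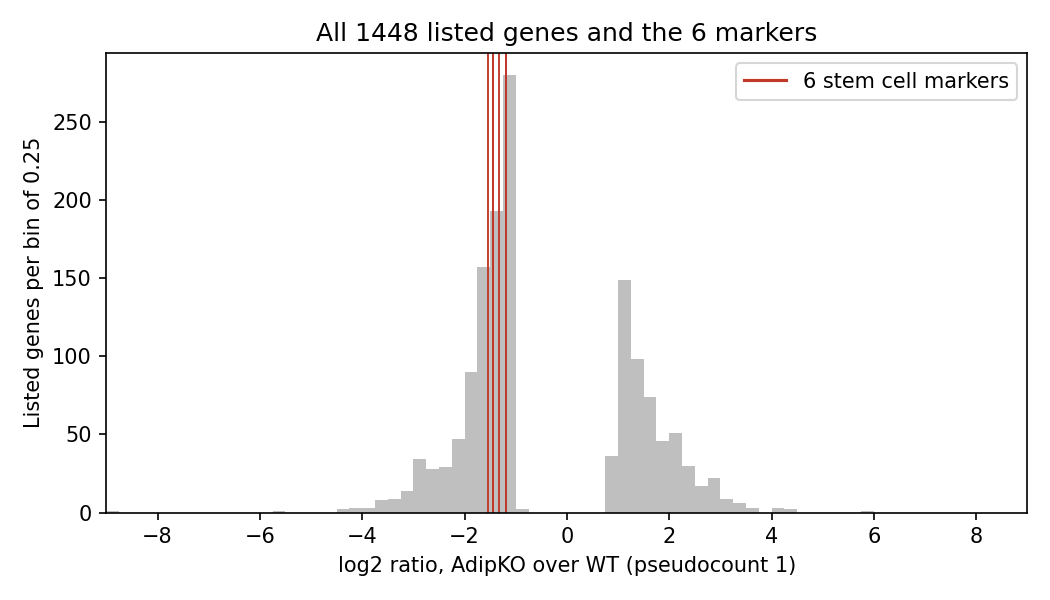
Number of listed genes per bin of 0.25 in the log2 ratio of AdipKO over WT (grey, 1448 genes, pseudocount 1), with red lines at the 6 markers. The markers lie between -1.55 and -1.19, within the tallest bins on the lower side, and no gene lies around 0.

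Among markers of neighbouring cell types, the listed Paneth, enteroendocrine and goblet cell genes were mostly lower, beside 62.2% of all listed genes, and 3 of the 4 listed tuft cell genes were higher. Most genes of each list had no value here, and the part of these cell types in the results was not tested. Of 22 Paneth cell genes 10 were listed, 9 lower and 1 higher, and their counts summed to 37205 in AdipKO and 72546 in WT. Lyz1, the Paneth cell lysozyme, had 16698 counts in AdipKO and 34709 in WT, and Itln1, a secreted lectin, had 11525 and 24258. The exception was Nupr1, a stress-response regulator, with 5392 counts in AdipKO and 1063 in WT. The 6 markers made 2.83 counts per Lyz1 count in AdipKO and 3.67 in WT, 1.30-fold lower. Against the Paneth cell defensins the order was the other way: Defa3, Defa5, Defa21 and Defa22, named after their values were seen, were 4.17-fold to 8.10-fold lower in AdipKO, against 2.70-fold for the sum of the 6 markers. Defensin genes are near copies of each other and their counts were partly fractional, so the split among them is uncertain. The 8 listed of 20 enteroendocrine genes were all lower, with sums of 4536 in AdipKO and 10785 in WT. Per count of Gcg, which encodes proglucagon, the 6 markers made 36.2 in AdipKO and 38.6 in WT, and per count of the granule protein Chga they made 34.2 and 42.3. All 4 listed of 16 goblet cell genes were lower as well (471 counts in AdipKO and 1148 in WT), led by Galnt12, a glycosyltransferase of mucin-type glycans, with 320 and 761.

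Against the higher enterocyte genes the markers differed more, as the selection of the list required. Of 25 enterocyte genes 5 were listed, 4 higher, as were 35.3% of all listed genes, and 1 lower. The 5 summed to 6290 counts in AdipKO and 2005 in WT, and the other enterocyte genes had no value here. Sis, which encodes sucrase-isomaltase, had 4435 counts in AdipKO and 1377 in WT, and Fabp1, a fatty acid binding protein, had 462 and 169. The 6 markers made 10.6 counts per Sis count in AdipKO and 92.5 in WT, 8.69-fold lower. Each listed gene differed by about 2-fold in some direction, so a lower gene set against a higher one was bound to give a larger contrast. Proportions within a library are free of the scaling between libraries. No listed gene of the cell type lists was at 0 in either library.

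Genes for niche signals that reach stem cells were listed in part, and genes for cell division rarely. Over all listed genes, 62.2% were lower and 35.3% higher. Of 9 niche ligands 3 were listed: Dll4, a Notch ligand, had 143 counts in AdipKO and 406 in WT, Wnt9b had 6 and 31, and Wnt11 had 7 and 1. The counts of Wnt9b and Wnt11 were low, and the interval of the Wnt11 ratio of AdipKO over WT (0.90 to 315) included 1. Wnt3, Egf and Dll1 were not listed. Of 18 proliferation genes Hmmr was the single one listed, higher in AdipKO with 2922 counts against 1402 in WT, and Mki67 and Top2a were not listed.

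The genes with at least 1000 counts over both libraries whose log2 ratio was nearest to the median of the 6 markers included Scd2, Lbh and Zfp503, out of 214 such genes. Likeness was the absolute difference of log2 ratios over 2 libraries, and was 0.0011 for Scd2 and 0.027 for Zfp503, the farthest of the 5 nearest. Scd2, a stearoyl-CoA desaturase that makes monounsaturated fatty acids, had 29244 counts in AdipKO and 76435 in WT. Lbh, a transcription cofactor, had 315 and 823, and Zfp503, a zinc finger repressor, had 412 and 1100. A likeness over 2 libraries places genes by the size of a single ratio and by nothing else.

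The sizes of these differences depend on the scale between the libraries, which the sums of a selected list do not fix. Without scaling, the gap in the ratios from -1.04 to 0.96 was nearly even about 0, and equal sums would move it off centre. If the listed sums were made equal, every log2 ratio would shift by 0.22, Tnfrsf19 and Mycl would be at -0.98 and -0.97, and 4 of the 6 markers would remain at least 2-fold lower, beside 660 of the 1448 genes.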

How the data were processed

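RNA from small intestinal organoids was sequenced by BGI as paired-end reads, with levels computed as FPKM and differences judged by fold change, per the study's methods. Per the file headers the authors deposited read counts, here called estimated counts since some values are fractional, with no scaling to depth. Per the labels the build was mm10. For the aligner, counting program, annotation and strand handling, nothing is given in the sources used here.

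Tables were joined on the NCBI gene ID. Of 1448 IDs, 1436 matched RefSeq GRCm38.p6, which gave the coordinates; transcript lengths and sequences came from GENCODE M21 of the same assembly. Fold changes are ratios of deposited counts with exact Clopper-Pearson 95% intervals; log2 ratios used a pseudocount of 1, and calls were at 2-fold. Intervals for pairs of genes were made on the log scale from the 4 counts. Reads are not independent molecules, so intervals cover counting error only. Depth was not analysed here, and no test between the genotypes was made.

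The members and gene lists were chosen with earlier results of these data known. Named genes were the 6 markers, every listed gene of the stem cell signature, up to 3 listed genes with the most counts of each other list, and the 5 genes nearest in log2 ratio, some of which are not reported here. Tnfrsf4, Ccn2, Spp1, the defensins and sequence relatives were named after their values or matches were seen. Other lists covered receptors and families of the markers, niche ligands, proliferation, reserve stem cells, Paneth, goblet, enteroendocrine, tuft, enterocyte, epithelial, stromal and immune markers. Alternatives covered the pseudocount (0.5 and 5), fold threshold (2.5 and 4), scaling, count minimums (16 and 500), transcript length and the sum behind the shares. The interval code was tested on simulated data. Python 3.11.15, scipy 1.17.1 and pandas 2.3.3 were used.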

Additional observations from a re-analysis of the deposited data

How the results depend on the processing

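All directions of the 6 markers were the same under every alternative run, and pseudocounts of 0.5 or 5 moved no value of theirs beyond its counting interval. Among 67 values recomputed this way, 41 moved by more than their interval or limit, 26 did not, and the number that changed sign was 0. Shares, counts per kilobase and numbers of genes cannot change sign. The log2 ratios could not turn either, since each listed gene differed by about 2-fold and the scaling shifted ratios by 0.22. With equal listed sums the log2 ratios became -1.11 for Lgr5, -1.22 for Olfm4, -0.98 for Tnfrsf19, -0.97 for Mycl and -1.23 for Clca3b, with medians of -1.17 for the 6 markers and -1.22 for the listed signature genes. At a threshold of 4-fold, 0 of the 6 markers, 0 of the signature genes and 197 of all listed genes were lower. At 2.5-fold, 4 of the 6 were.

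Shares per kilobase, in AdipKO and then WT, were 78.0% and 78.6% for Olfm4, 12.5% and 12.6% for Clca3b, 5.99% and 5.57% for Lgr5, 2.00% and 1.69% for Tnfrsf19, 0.833% and 0.705% for Mycl, and 0.731% and 0.795% for Ascl2. Without Olfm4 in the sum, they were 62.9% and 65.4% for Clca3b, 23.8% and 22.8% for Lgr5, 7.78% and 6.79% for Tnfrsf19, 4.12% and 3.58% for Mycl, and 1.33% and 1.48% for Ascl2. With the longest transcript as divisor, counts per kilobase were 12168 and 33135 for Olfm4, 663 and 1667 for Lgr5, 252 and 578 for Tnfrsf19 and 108 and 318 for Ascl2, in AdipKO and WT in that order, and 352 for Mycl in WT. These changes follow from the divisor or the sum that each alternative uses. No paired analysis was possible because each genotype had 1 library. The list was selected by the same difference, and the spread between cultures was not measured.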

Other observations

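Of the genes tied to reserve stem cells and regeneration, those listed went mostly against the crypt base markers. Of 17, 5 were listed, 4 at least 2-fold higher in AdipKO and 1 lower, while 35.3% of all listed genes were higher. Most of the 17 had no value here. The lower gene was Ccn2, with 32 counts in AdipKO and 109 in WT. Among the higher genes, Spp1 had 9 counts in AdipKO and 1 in WT. The epidermal growth factor receptor ligands Areg and Ereg had 9080 and 602 counts in AdipKO, against 1537 and 122 in WT, and Anxa8, an annexin, had 422 in AdipKO and 79 in WT. The 6 crypt base markers made 5.20 counts per Areg count in AdipKO and 82.8 in WT, lower genes set against a higher one, a contrast that the selection made large. The tuft cell list had 4 of 14 genes listed, 3 higher and 1 lower, at 44 counts or fewer in either library. Of 16 stromal genes 2 were listed, Vim lower (109 counts in AdipKO, 322 in WT) and S100b higher (24 and 5). Of 14 immune genes 2 were listed and both were higher, Cd68 with 235 counts in AdipKO and 109 in WT and Itgam with 57 and 25.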
